A study of Mus musculus with 11 samples.

Results

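The enzymes that carry glucose carbon through glycolysis, the pentose phosphate branch, the pyruvate shuttles and the tricarboxylic acid (TCA) cycle were followed in mouse β-cells that lacked Raptor, the defining subunit of the kinase complex mTORC1. The set was a list of 52 named genes, chosen by pathway with earlier results of these data known, out of 34728 gene symbols in the deposited table. All 52 were present in the table. They were ordered by pathway step, with 9 genes of upper glycolysis, 7 of lower glycolysis, 8 of pyruvate entry, 11 of the TCA cycle, 7 of the citrate and NADPH shuttles, 6 of the NADH shuttles and glutamate metabolism, and 4 of the pentose phosphate branch.

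RNA sequencing had been done on GFP-positive cells sorted from dispersed islets of male mice, 8 weeks old, of the strain C57BL/6 x 129SV. WT mice (*Raptor*+/+, *RIP-Cre*, *Rosa26*GFP; 3 libraries) were compared with diabetic βRapKOGFP mice (*Raptor*-/-, *RIP-Cre*, *Rosa26*GFP, no insulin pellet; 4 libraries) and with euglycemic βRapKOGFP mice (the same genotype with a slow-release insulin pellet for 4 weeks; 4 libraries). All groups, the controls included, carried Cre under the rat insulin promoter and the GFP reporter. The sort selected cells in which that Cre had been active and, by the study's methods, left a minority of other cells. The diabetic and euglycemic mutants shared a genotype and differed in the insulin pellet. The labels do not say whether a library came from 1 mouse or from a pool, and p-values measure only the spread between these libraries.

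A β-cell senses glucose by metabolizing it. Glucose enters through the transporter GLUT2, is phosphorylated, and is split in glycolysis to pyruvate, which enters the mitochondrion through the pyruvate carrier and is oxidized by pyruvate dehydrogenase or carboxylated by pyruvate carboxylase. β-Cells make little lactate dehydrogenase, so the NADH of glycolysis is passed to mitochondria by the malate-aspartate and glycerol phosphate shuttles. Citrate and malate that leave the mitochondrion feed cytosolic NADPH, and together these routes couple glucose to ATP and insulin release.

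*Rptor*, the deleted gene, had 0.948, 1.36 and 1.79 FPKM (fragments scaled to transcript length and library size) in the WT libraries and 0.423 to 0.937 FPKM in the 8 mutant libraries, which do not overlap. One value per gene cannot show the deleted exon by itself. The depth inferred from the values was 9484965 to 16558638 fragments per library, at which 1 fragment on 1 kb is worth 0.0604 to 0.105 FPKM. *Ins1* and *Ins2* together held 17.5% to 41.3% of all FPKM, and the 10 β-cell markers, none of them at 0 in any library, summed to 156773 to 191100 FPKM in WT and 116596 to 206475 FPKM in the mutants. Markers of other islet cell types were higher in both mutant groups. The summed 8 α-cell markers ranged from 1081 to 2488 FPKM in WT and from 4149 to 23920 FPKM in the mutants. The 5 δ-cell markers ranged from 1195 to 2530 FPKM in WT and from 4873 to 13962 FPKM in the mutants, and the 2 PP-cell markers from 513 to 1107 FPKM and from 3674 to 14238 FPKM. *Pou3f4* of the α-cell list was at 0 in every WT library. The 13 acinar markers summed to 4.35 to 56.7 FPKM in WT, to 15.9 to 16.7 FPKM in diabetic replicate 4 and euglycemic replicates 2 and 3, and to 1213 to 5817 FPKM in the other 5 mutant libraries. The 9 endothelial markers summed to 1.68 to 4.06 FPKM in WT, 8.64 to 51.8 FPKM in the diabetic and 1.40 to 4.43 FPKM in the euglycemic libraries, and the 6 stellate markers to 0 to 0.496, 0.563 to 15.8 and 0 to 0.245 FPKM, with 4 and 2 of them at 0 in every WT library. The 8 leukocyte markers reached 95.3 FPKM in a diabetic library against at most 23.4 FPKM in WT, where *Ptprc*, *Cd3e* and *Adgre1* were at 0. The 6 duct markers summed to 61.6 to 75.9 FPKM in WT and 63.0 to 136 FPKM in the mutants, and the 8 immediate early genes to 1192 to 3333 FPKM and 940.4 to 5031 FPKM. The part of these cells in the results below was not tested, and in sorted bulk RNA fewer β-cells and less RNA per β-cell cannot be told apart.

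A pair of libraries stood apart from their groups. WT replicate 1 differed from the mean of the other WT libraries by at least 1.5-fold in 17 of 51 enzymes and in 33.3% of all genes tested, and euglycemic replicate 4 from its group in 18 of 51 enzymes and in 37.6% of all genes. For the other 9 libraries the count was 1 to 9 enzymes. The difference of a library from its group was correlated with transcript length over the 51 enzymes in several libraries (Spearman's rho -0.48 in diabetic replicate 4, -0.46 in WT replicate 1, 0.44 in WT replicate 2 and -0.28 to 0.35 in the others), as a description over genes that share libraries. Diabetic replicate 1 had 25711 genes above 0, against 13095 to 17329 in the others.

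The enzymes spanned a wide range of levels, and for most of them the 3 groups overlapped. The highest member of lower glycolysis was *Pkm*, pyruvate kinase, at 383, 379 and 355 FPKM in WT, 287, 294, 429 and 338 FPKM in the diabetic and 394, 377, 290 and 205 FPKM in the euglycemic libraries. *Acly*, the ATP citrate lyase that makes cytosolic acetyl-CoA, had 123, 225 and 235 FPKM in WT, with 266, 302, 188 and 104 FPKM in the diabetic and 160, 178, 124 and 136 FPKM in the euglycemic libraries. *Mdh1*, the cytosolic malate dehydrogenase of the malate-aspartate shuttle, had 285, 97.3 and 121 FPKM in WT, 124, 113, 166 and 207 FPKM in the diabetic and 220, 271, 209 and 127 FPKM in the euglycemic libraries. For each of these 3 genes the groups overlapped, and the first WT library lay far from the other two in *Acly* and *Mdh1*. The highest members of the other steps were *Aldoa* (aldolase A), *Pdhb* (a pyruvate dehydrogenase subunit), *Mdh2* (mitochondrial malate dehydrogenase) and *Taldo1* (transaldolase), with WT means of 83.4, 115, 51.2 and 55.2 FPKM. *Mdh2* had 70.3, 41.4 and 41.9 FPKM in WT, 45.3, 37.1, 56.1 and 55.2 FPKM in the diabetic and 78.4, 69.4, 63.1 and 46.8 FPKM in the euglycemic libraries, and again WT replicate 1 stood above the other two. At the low end, *Me3*, a mitochondrial malic enzyme, had 0.345 to 0.487 FPKM in WT, and *Gapdh* had only 0.512 to 1.90 FPKM over all 11 libraries. *Gapdh* shares 25.1% of its 50-base stretches with other annotated genes, 223 in all, so its value is uncertain. Of the 52 enzymes, 15 shared more than 10% in this way, among them *Pgam1* (36.2%), *Me1* (28.3%), *Eno1* (26.0%) and *Pkm* (25.8%).

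**Figure D1:**
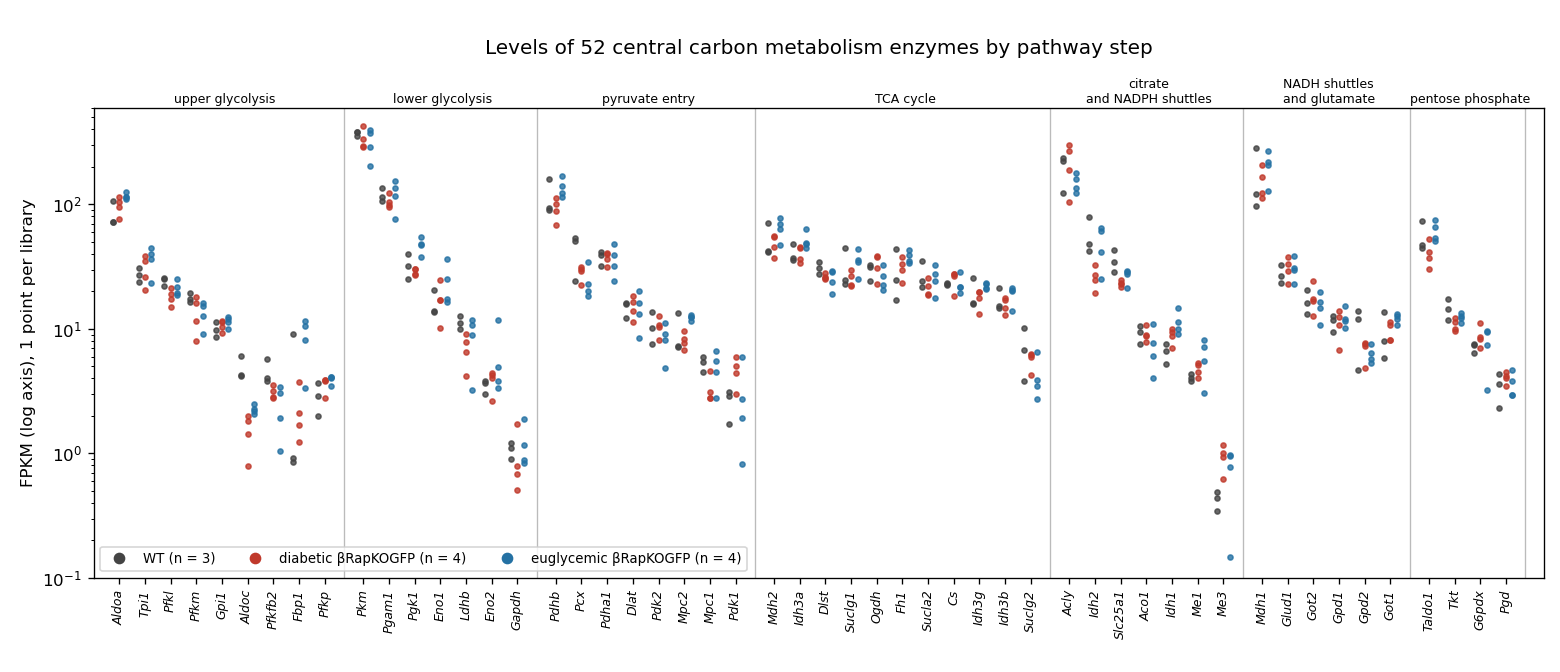
FPKM on a log axis of the 52 enzymes, 1 point per library, grouped by pathway step and ordered by WT mean within a step, for WT (n = 3), diabetic βRapKOGFP (n = 4) and euglycemic βRapKOGFP (n = 4) mice. Levels run from *Pkm* at 205 to 429 FPKM to *Me3* at 0.148 to 1.17 FPKM, and for most genes the 3 groups overlap.

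Summed over each step, 1 of 7 sums had no overlap between WT and a mutant group. This was the sum of the citrate and NADPH shuttles, at 264 to 337 FPKM in WT and 244 to 259 FPKM in the euglycemic libraries, while the diabetic libraries spread from 184 to 378 FPKM. No test was made of these sums, to which *Acly* contributed most. The 11 TCA cycle enzymes summed to 305 ± 63.9 FPKM in WT (SD, n = 3), 289 ± 30.0 FPKM in the diabetic (n = 4) and 332 ± 44.3 FPKM in the euglycemic mutants (n = 4). Upper glycolysis summed to 178 ± 26.9, 181 ± 22.1 and 216 ± 11.5 FPKM in the same order, and lower glycolysis to 555 ± 38.7, 501 ± 81.8 and 524 ± 133 FPKM. Within groups the SD of log2(FPKM + 1) had a median of 0.32 over the 51 enzymes and 0.33 over all genes tested. *Gpi1*, glucose phosphate isomerase, varied least (0.14) and *Fbp1*, the gluconeogenic fructose bisphosphatase, most (0.87).

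In diabetic βRapKOGFP β-cells 1 enzyme passed the test, *Aldoc*, the brain-type aldolase C, which fell. Of the 51 enzymes with at least 1 FPKM in at least 3 libraries, it alone was called (an adjusted p no higher than 0.05 with a change of 1.5-fold or more), where 0.969% of 11251 genes tested were called and 0.498% fell. *Aldoc* had 6.02, 4.20 and 4.30 FPKM in WT, 1.42, 0.793, 1.996 and 1.83 FPKM in the diabetic libraries and 2.27, 2.21, 2.48 and 2.09 FPKM in the euglycemic libraries. The lowest WT value was above all 8 mutant values, and the highest diabetic value was under the lowest euglycemic one. The log2 fold change of FPKM + 1 was -1.23 ± 0.21 (SE) in the diabetic mutants against WT (limma, adjusted p = 0.0177), and -1.03 ± 0.19 for both mutant groups against WT (adjusted p = 0.0202), where 1.05% of all genes were called and 0.516% fell. In the euglycemic mutants it was -0.83 ± 0.21 and did not pass (adjusted p = 0.131). The diabetic and euglycemic mutants differed by -0.40 ± 0.19 (adjusted p = 0.26), so a difference between the 2 mutant groups was not shown. *Aldoc* (ENSMUSG00000017390) lies at chr11:78322968-78327781 on the plus strand in GRCm38, shares no 50-base stretch with another annotated gene and overlaps none. Its call was lost without any one of the 3 WT libraries and without diabetic replicate 1 (log2 fold change without WT replicate 1, -1.09, where 0.304% of 11186 genes were called; -0.89 for both mutant groups, where 1.23% were called), and with the 5 libraries rich in acinar markers left out it was -1.03 (adjusted p = 0.353), where a single diabetic library, replicate 4, was left and was assumed to vary like the other groups. With library weights 7 enzymes were called in both mutant groups against WT, where 9.92% of all genes were. Over 22 alternatives the adjusted p of *Aldoc* in the diabetic mutants ran from 0.00321 to 0.353 and was at most 0.05 in 14, with log2 fold changes of -1.67 to -1.03.

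None of the other enzymes passed in the diabetic comparison. At an unadjusted p of at most 0.05 there were 5, *Slc25a1*, *Aldoc*, *Pfkl*, *Mpc1* and *Idh2*, all lower, where 11.9% of all genes tested reached that p and 5.74% of all genes tested did so on the lower side. *Slc25a1*, the mitochondrial citrate carrier, had 42.9, 28.5 and 34.7 FPKM in WT and 21.6, 22.9, 24.8 and 23.5 FPKM in the diabetic libraries, with no overlap (log2 fold change -0.57 ± 0.19; limma, adjusted p = 0.23; -0.42 without WT replicate 1). *Idh2*, the mitochondrial NADP-dependent isocitrate dehydrogenase, had 79.6, 42.2 and 48.0 FPKM in WT, 19.3, 26.9, 24.6 and 32.7 FPKM in the diabetic and 41.7, 25.3, 61.6 and 64.2 FPKM in the euglycemic libraries. The diabetic libraries were all below WT and the euglycemic ones overlapped it, with log2 fold changes of -1.07 ± 0.32 (adjusted p = 0.175) and -0.26 ± 0.32 (adjusted p = 0.742). Without WT replicate 1 the diabetic value of *Idh2* was -0.80 and the euglycemic one 0.0088, and without euglycemic replicate 4 the euglycemic one was -0.43.

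*Ldhb*, the heart-type lactate dehydrogenase subunit, had, after *Aldoc* and *Idh2*, the third of the 3 lowest log2 fold changes. It had 12.8, 11.2 and 10.01 FPKM in WT, 6.56, 4.21, 7.87 and 9.16 FPKM in the diabetic and 11.9, 10.7, 8.93 and 3.21 FPKM in the euglycemic libraries (log2 fold change in the diabetic mutants -0.67 ± 0.35; adjusted p = 0.483). The diabetic libraries lay below WT, and the value was -0.27 with only the libraries low in acinar markers, which left diabetic replicate 4 as the 1 diabetic library. *Ldhb* shares 21.0% of its 50-base stretches with a processed pseudogene. The 3 highest log2 fold changes were those of *Pdk1*, a kinase that inactivates pyruvate dehydrogenase, *Idh1*, the cytosolic NADP-dependent isocitrate dehydrogenase, and *Pfkp*, the platelet-type phosphofructokinase. These were 0.65 ± 0.37, 0.39 ± 0.21 and 0.27 ± 0.20, none of them called. *Pfkp* was at 0.42 without WT replicate 1 and at -0.01 when diabetic replicate 4, its lowest diabetic library (2.76 FPKM against 3.80 to 3.91 FPKM), was the 1 diabetic library left after those rich in acinar markers were taken out.

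*Pdk1* had 1.73, 3.12 and 2.87 FPKM in WT, 4.43, 5.04, 5.98 and 3.02 FPKM in the diabetic and 2.74, 5.97, 1.93 and 0.829 FPKM in the euglycemic libraries. All but 1 of the diabetic libraries were above WT, and the euglycemic libraries spread to both sides. Of the 51 enzymes tested, 6 had no overlap between WT and the diabetic libraries, *Slc25a1*, *Aldoc*, *Pfkl*, *Pfkfb2*, *Ldhb* and *Idh2*, all of them lower in the mutants, where 13.5% of all genes did not overlap and 6.88% were lower. *Me3*, below the minimum of the fit, was higher without overlap. *Pfkl*, the liver-type phosphofructokinase, had 22.2 to 25.6 FPKM in WT and 14.97 to 21.4 FPKM in the diabetic libraries. The median log2 fold change was -0.06 over the 51 enzymes and 0.01 over all genes tested.

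**Figure D2:**
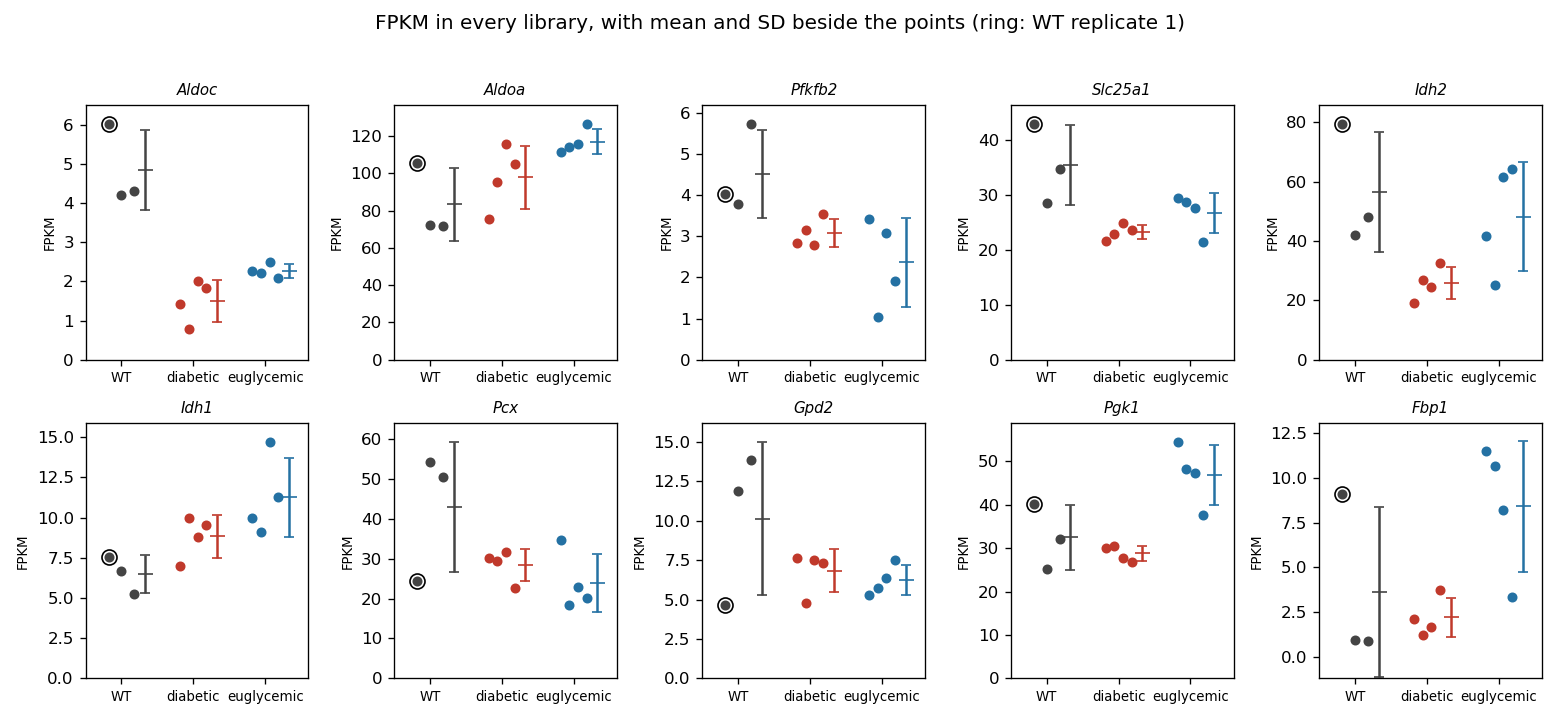
FPKM of 10 enzymes in every library of WT (n = 3), diabetic (n = 4) and euglycemic (n = 4) βRapKOGFP mice, with the group mean and SD beside the points and a ring around WT replicate 1. The *Aldoc* points of both mutant groups lie below WT, the diabetic points of *Slc25a1* and *Idh2* lie below WT, and WT replicate 1 stands among the mutants in *Pcx* and *Fbp1* and below them in *Gpd2*.

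In euglycemic βRapKOGFP β-cells no enzyme passed the test, where 0.551% of 11251 genes were called. With limma, 7 of 51 reached an unadjusted p of at most 0.05, where 13.9% of all genes did, 7.33% higher and 6.52% lower. *Aldoc*, *Pcx* and *Pfkfb2* were lower and *Idh1*, *Aldoa*, *Pgk1* and *Fbp1* higher. With library weights in limma, 17 enzymes were called, where 20.3% of all genes were, and without WT replicate 1 there were 4, where 4.76% of all genes were. The median log2 fold change was -0.01 over the enzymes and -0.01 over all genes, and without euglycemic replicate 4 the medians were 0.13 and 0.03.

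*Pfkfb2*, the bifunctional enzyme that sets fructose 2,6-bisphosphate and so the activity of phosphofructokinase, had 4.01, 3.79 and 5.73 FPKM in WT, 2.83, 3.16, 2.78 and 3.53 FPKM in the diabetic and 3.41, 1.04, 3.08 and 1.92 FPKM in the euglycemic libraries. All 8 mutant libraries were below the 3 WT libraries. *Aldoc* and *Pfkfb2* were the 2 enzymes of 51 with this order, where 3.68% of all genes had no overlap between WT and both mutant groups and 1.78% were lower. The log2 fold change of *Pfkfb2* was -0.76 ± 0.26 in the euglycemic (adjusted p = 0.228) and -0.42 ± 0.26 in the diabetic mutants (adjusted p = 0.565). In the euglycemic mutants *Pfkfb2* was at -0.82 without WT replicate 1 and at -0.71 without euglycemic replicate 4. Of its exon bases 19.5% overlap other annotated genes.

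*Pcx*, pyruvate carboxylase, the anaplerotic enzyme that is abundant in β-cells, had 24.3, 54.1 and 50.4 FPKM in WT, 30.1, 29.3, 31.6 and 22.6 FPKM in the diabetic and 34.6, 18.3, 22.9 and 20.1 FPKM in the euglycemic libraries. Replicates 2 and 3 of WT were above all 8 mutant libraries and replicate 1 was among them. The log2 fold change was -0.78 ± 0.29 in the euglycemic mutants (limma, adjusted p = 0.259) and became -1.13 ± 0.25 (adjusted p = 0.0322) without WT replicate 1 and -0.71 without euglycemic replicate 4. Over 23 alternatives the adjusted p of *Pcx* ran from 0.0043 to 0.761 and was at most 0.05 in 2. In the diabetic mutants *Pcx* was at -0.51 ± 0.29 (adjusted p = 0.522), and at -0.87 ± 0.25 (adjusted p = 0.202) without WT replicate 1.

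*Fbp1* had 9.11, 0.912 and 0.859 FPKM in WT, 2.13, 1.23, 1.68 and 3.75 FPKM in the diabetic and 11.5, 10.6, 8.20 and 3.34 FPKM in the euglycemic libraries. WT replicate 1 was at the level of the euglycemic mutants, and the other two WT libraries below all mutants. Its log2 fold change in the euglycemic mutants was 1.40 ± 0.54 (adjusted p = 0.278), and 2.21 ± 0.41 (adjusted p = 0.0195) without that library and 1.74 without euglycemic replicate 4, with an adjusted p of 0.000606 to 0.811 over 23 alternatives. Leaving it out also called *Gpd2*, the mitochondrial glycerol phosphate dehydrogenase (log2 fold change -0.95 ± 0.22; adjusted p = 0.0362), and *Mpc2*, a subunit of the mitochondrial pyruvate carrier (0.70 ± 0.18; adjusted p = 0.0463). In that fit 4.76% of 11186 genes were called. With all 11 libraries *Gpd2* was at -0.51 ± 0.30 (limma, adjusted p = 0.457) and *Mpc2* at 0.43 ± 0.22 (adjusted p = 0.396).

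*Gpd2* had 4.64, 11.9 and 13.8 FPKM in WT, 4.81 to 7.65 FPKM in the diabetic and 5.32 to 7.53 FPKM in the euglycemic libraries. Replicates 2 and 3 of WT were above every mutant library and replicate 1 was below every one. *Idh1* had 7.53, 6.70 and 5.22 FPKM in WT, 6.99, 9.997, 8.80 and 9.51 FPKM in the diabetic and 10.0001, 9.09, 14.7 and 11.3 FPKM in the euglycemic libraries, the last of which were all above WT (log2 fold change 0.70 ± 0.21; adjusted p = 0.171; 0.80 without WT replicate 1 and 0.70 without euglycemic replicate 4). *Aldoa* had 106, 72.3 and 72.0 FPKM in WT, 75.8, 95.5, 116 and 105 FPKM in the diabetic and 111, 114, 116 and 127 FPKM in the euglycemic libraries, the last again without overlap with WT (0.51 ± 0.20; adjusted p = 0.296; 0.69 without WT replicate 1 and 0.47 without euglycemic replicate 4). With *Aldoc*, *Pfkfb2* and *Pfkm*, the muscle-type phosphofructokinase, which were lower, 5 enzymes had no overlap between WT and the euglycemic libraries, where 10.9% of all genes had none, 5.91% higher and 5.02% lower.

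The DNA before the starts of *Aldoc*, *Slc25a1* and *Pcx*, a glycolytic, a citrate export and an anaplerotic gene among the 5 enzymes that were lower in the fit of all 8 mutant libraries against WT at an unadjusted p of at most 0.05, is shown because mTORC1 is known to act on metabolic genes through factors that read short promoter motifs. The others of the 5, *Pfkfb2* and *Idh2*, met the same criterion and are not printed. It was met on the lower side by 9.8% of the 51 enzymes tested. Of 47 other genes of these pathways 8.51% met it, and the share over all genes is not reported here. The 3 shown were chosen with their values known. Sequences are from RefSeq on GRCm38.p6, 5′ to 3′ on the strand of the gene, the 250 bases before the first listed start, cut where the GENCODE gene begins. Capitals mark the E-box CACGTG and its core ACGTG on either strand. They also mark the CCAAT box, the GC box with the letters GGGCGG, the binding motif of NRF1 and, for SREBP, the letters TCACNCCAC. They lie at chr11:78322823-78322967 (plus strand), chr16:17928220-17928469 (minus strand) and chr19:4510222-4510471 (plus strand).
Aldoc: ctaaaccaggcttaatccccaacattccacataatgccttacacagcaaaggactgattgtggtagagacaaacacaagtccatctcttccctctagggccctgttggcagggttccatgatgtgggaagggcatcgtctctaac
Slc25a1: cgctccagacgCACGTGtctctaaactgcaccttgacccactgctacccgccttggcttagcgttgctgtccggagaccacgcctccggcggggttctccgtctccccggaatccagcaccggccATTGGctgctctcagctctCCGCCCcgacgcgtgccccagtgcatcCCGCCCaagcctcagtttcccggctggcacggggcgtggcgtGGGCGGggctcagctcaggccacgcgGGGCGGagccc
Pcx: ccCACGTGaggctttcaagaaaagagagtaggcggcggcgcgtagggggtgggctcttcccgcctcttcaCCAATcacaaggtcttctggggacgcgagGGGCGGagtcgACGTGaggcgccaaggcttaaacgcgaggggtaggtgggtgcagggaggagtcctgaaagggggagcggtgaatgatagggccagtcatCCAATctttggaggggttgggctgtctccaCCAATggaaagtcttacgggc
The 145 bases before *Aldoc* hold none of these letters, while *Slc25a1* and *Pcx* each hold CACGTG. Of the enzymes not printed, *Pfkfb2* holds CACGTG and *Idh2* does not. Of the 52 enzymes, 50 had a promoter in RefSeq. In the 250-base windows, CACGTG was in 5 of the 50 (*Pcx*, *Pdk2*, *Pfkfb2*, *Pfkm* and *Slc25a1*), or 10%, against 6.05% of 27025 promoters, and ACGTG, which CACGTG contains, in 24% against 16.6%. GGGCGG was in 64% against 32.9%, and CCAAT in 46% against 34.5%. The motif of NRF1 was in 4% against 3.86% and TCACNCCAC in 2% against 1.04%, its 1 enzyme being *Aldoc*, in bases not printed here. A match is a description of letters and not of a bound site.

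Between diabetic and euglycemic βRapKOGFP β-cells no enzyme passed the test, where 0.00889% of 11251 genes, a single gene, were called. With limma, 6 reached an unadjusted p of at most 0.05, *Pdhb*, *Taldo1*, *Mpc2*, *Idh2*, *Pgk1* and *Fbp1*, all of them lower in the diabetic mutants, where 20.6% of all genes reached it and 10.0% did so on the lower side. *Pgk1*, phosphoglycerate kinase, had 30.03, 30.5, 27.7 and 26.9 FPKM in the diabetic and 54.4, 48.2, 47.2 and 37.7 FPKM in the euglycemic libraries, with 40.2, 25.3 and 32.04 FPKM in WT. The mutant groups did not overlap (log2 fold change -0.68 ± 0.18; adjusted p = 0.125; -0.77 without euglycemic replicate 4), and WT spanned the gap between them. *Pgk1* shares 53.9% of its 50-base stretches with other genes, nearly all with a pseudogene that had a mean of 0.0783 FPKM. *Fbp1* was at -1.51 ± 0.50 (adjusted p = 0.152; -1.84 without euglycemic replicate 4). With library weights 5 enzymes were called, where 10.8% of all genes were.

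*Pdhb* had 88.2, 67.7, 114 and 101 FPKM in the diabetic and 140, 170, 123 and 115 FPKM in the euglycemic libraries, with 161, 93.6 and 89.7 FPKM in WT. The highest diabetic and the lowest euglycemic library lay close together (log2 fold change -0.57 ± 0.23; adjusted p = 0.203). *Taldo1* had 30.1, 37.1, 41.5 and 52.4 FPKM in the diabetic, 74.3, 65.8, 54.1 and 51.2 FPKM in the euglycemic and 73.8, 44.9 and 47.0 FPKM in the WT libraries (-0.61 ± 0.22; adjusted p = 0.172), and *Mpc2* 6.77 to 9.61 FPKM and 11.6 to 12.999 FPKM (-0.56 ± 0.20; adjusted p = 0.164). No overlap was seen in 5 enzymes, *Idh3g*, *Aldoc*, *Pdhb*, *Mpc2* and *Pgk1*, all lower in the diabetic libraries, where 14.3% of all genes did not overlap and 7.42% were lower.

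The median difference of the diabetic from the euglycemic mutants was -0.20 over the enzymes and 0.01 over all genes tested, and 33 of the 51 enzymes were lower in the diabetic mutants, where 50.9% of all genes were higher. By step it was -0.22 in upper glycolysis, -0.21 in lower glycolysis, -0.25 in the TCA cycle and -0.20 in the citrate and NADPH shuttles, against 0.09 in pyruvate entry, -0.07 in the NADH shuttles and -0.01 in the pentose phosphate branch. With each library rescaled to the same sum of FPKM (TPM), the median over all genes moved to 0.14 and that over the enzymes to -0.09. Without euglycemic replicate 4 the median was -0.19 over the enzymes and -0.05 over all genes. The 3 highest differences were those of *Pdk1* (0.68 ± 0.34), *Acly* (0.43 ± 0.32) and *Suclg2*, a succinyl-CoA ligase subunit (0.42 ± 0.27), which were 0.38, 0.38 and 0.28 without euglycemic replicate 4. *Suclg2* had 6.00, 4.23, 6.22 and 6.30 FPKM in the diabetic, 3.87, 3.45, 6.49 and 2.73 FPKM in the euglycemic and 10.2, 3.78 and 6.80 FPKM in the WT libraries, all overlapping. *Pdk1* and *Acly* turned to -0.17 and -0.51 with only the libraries low in acinar markers, which left 1 diabetic library. Without WT replicate 1, which enters only through the shared spread and the choice of genes tested, *Pgk1* (adjusted p = 0.0422) and *Fbp1* (adjusted p = 0.0416) were called, where 3.40% of all genes were. Over 23 alternatives their adjusted p ran from 0.0149 to 0.812 and from 0.0132 to 0.826.

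**Figure D3:**
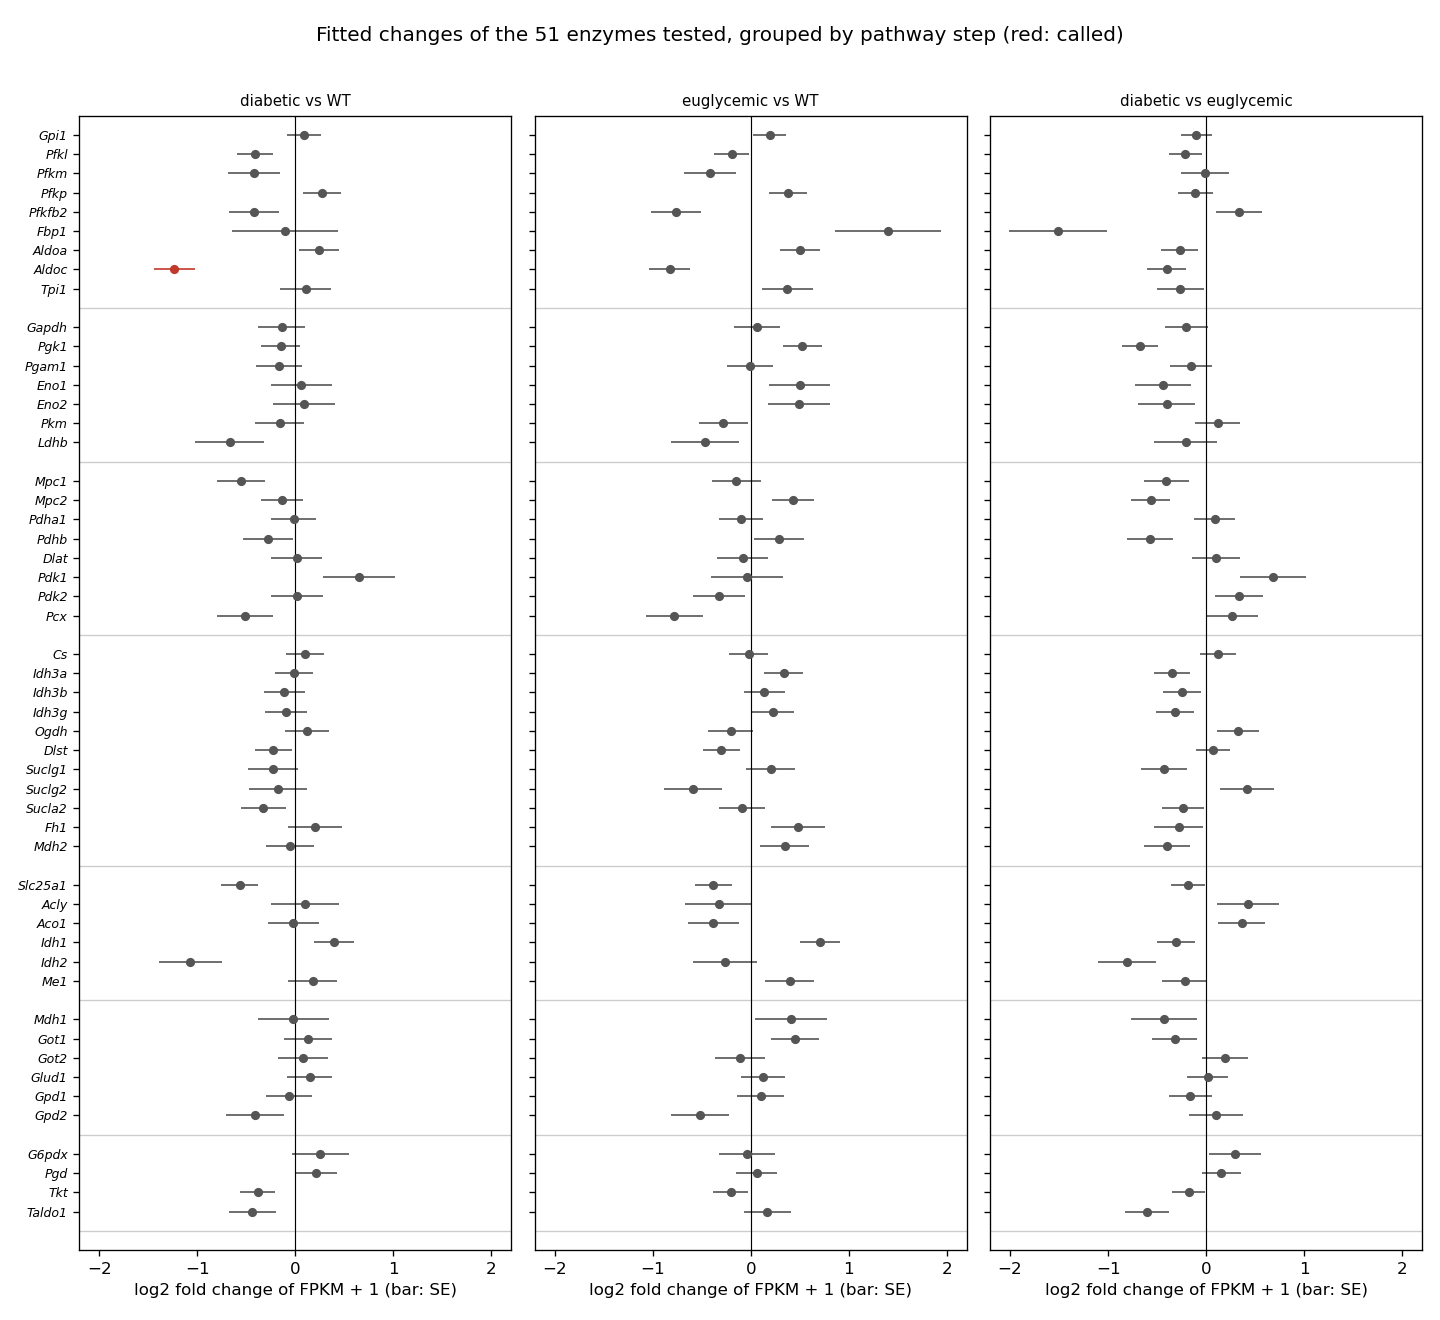
Log2 fold change of FPKM + 1 (point) with its SE (bar) from limma for 51 enzymes by pathway step, diabetic mutants against WT, euglycemic mutants against WT, and diabetic against euglycemic mutants. *Aldoc* at -1.23 in the first panel is the 1 enzyme called, and 33 of 51 points in the third panel are left of 0.

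Comparing paired enzymes within a library removes what moves both of them alike. The log2 ratio of FPKM + 1 was formed for 12 pairs and compared between 3 WT and 8 mutant libraries with a two-sided exact permutation test over the 165 arrangements, whose smallest p is 0.00606, adjusted over the 12 pairs. The pairs had been chosen with earlier results of these data known. Of the 12, 3 passed at an adjusted p of at most 0.05. The number was 0 when any 1 of the 3 WT libraries was left out, which leaves 45 arrangements and a smallest exact p of 0.0222. Adjusted over 12 pairs, 3 pairs at that smallest p cannot pass. That 0 therefore cannot show whether the ratios depend on 1 WT library.

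The ratio of *Aldoc* to *Aldoa* was -3.93, -3.82 and -3.78 in WT and -5.75 to -4.98 in the mutants. All 8 mutant libraries were below WT, by 1.40 on the log2 scale between the means (exact p = 0.00606, adjusted p = 0.0364), with means of -5.31 ± 0.32 (SD, n = 4) in the diabetic and -5.18 ± 0.14 (n = 4) in the euglycemic mutants. The ratio of *Idh1* to *Idh2*, the cytosolic to the mitochondrial NADP-dependent isocitrate dehydrogenase, was -3.24, -2.49 and -2.98 in WT, -1.68 to -1.34 in the diabetic and -2.41 to -1.38 in the euglycemic libraries. All 8 mutant libraries were above WT, although euglycemic replicate 4 was only just so, and the means differed by 1.21 (exact p = 0.00606, adjusted p = 0.0364).

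The ratio of *Pfkp* to *Pfkl* had a mean of -2.74 ± 0.42 in WT (SD, n = 3) and -2.11 ± 0.14 in the 8 mutant libraries, which overlapped WT (difference 0.63; exact p = 0.0121, adjusted p = 0.0485). The other 9 pairs did not pass. *Mdh1* to *Mdh2* differed by 0.05 (exact p = 0.794), *Eno2* to *Eno1*, the neuronal to the ubiquitous enolase, by 0.01 (exact p = 0.964), and *Idh3g* to *Idh3a*, subunits of the NAD-dependent isocitrate dehydrogenase, by -0.10 (exact p = 0.545). *Mpc1* to *Mpc2*, which form the pyruvate carrier together, differed by -0.50 (exact p = 0.0606, adjusted p = 0.182).

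**Figure D4:**
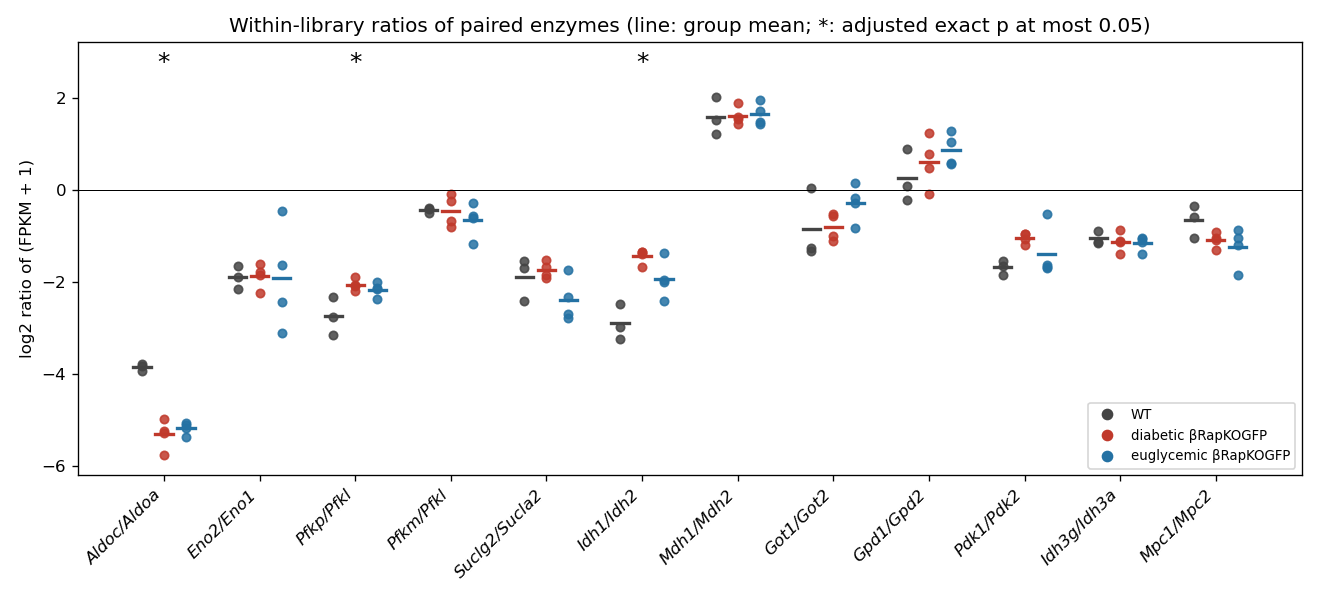
Log2 ratio of FPKM + 1 of 12 enzyme pairs, 1 point per library, with a line at the mean of WT (n = 3), diabetic (n = 4) and euglycemic (n = 4) βRapKOGFP mice. Stars mark the 3 pairs with an adjusted exact p of at most 0.05, of which *Aldoc*/*Aldoa* and *Idh1*/*Idh2* show no overlap between WT and mutants.

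No TCA cycle enzyme was called in the fit of all 11 libraries without weights, in any comparison. With library weights *Mdh2*, *Fh1* (fumarate hydratase) and *Suclg1* (a succinyl-CoA ligase subunit) were called in the euglycemic mutants against WT, where 20.3% of all genes were, and *Fh1* in both mutant groups against WT, where 9.92% were. Citrate synthase (*Cs*) had 22.5, 22.8 and 23.5 FPKM in WT, 18.2 to 27.7 FPKM in the diabetic and 19.4 to 28.6 FPKM in the euglycemic libraries, a log2 fold change of 0.10 ± 0.20 and -0.02 ± 0.20. The 11 log2 fold changes of the cycle lay between -0.32 and 0.20 in the diabetic and between -0.59 and 0.48 in the euglycemic mutants. The 4 pentose phosphate enzymes lay between -0.44 and 0.25 in the diabetic and between -0.21 and 0.17 in the euglycemic mutants. Without WT replicate 1 the cycle lay between -0.22 and 0.56 in the diabetic and between -0.34 and 0.84 in the euglycemic mutants, and the pentose phosphate enzymes between -0.51 and 0.28 and between -0.34 and 0.39. The highest of these was *Fh1* in the euglycemic mutants (log2 fold change 0.84; limma, adjusted p = 0.055).

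*Me3* was below the minimum of the fit and was compared with exact permutation tests on log2(FPKM + 1). It had 0.345, 0.442 and 0.487 FPKM in WT, 1.17, 0.629, 1.015 and 0.933 FPKM in the diabetic and 0.973, 0.945, 0.772 and 0.148 FPKM in the euglycemic libraries. The diabetic libraries were all above WT (difference 0.44; two-sided exact p = 0.0571, where the smallest possible is 0.0286), and 1 euglycemic library was below it. For both mutant groups together the difference was 0.33 (exact p = 0.0848), and without euglycemic replicate 4 it was 0.43 (exact p = 0.00833). With a pseudocount of 0.1 the differences were 0.96 in the diabetic mutants and 0.70 in both groups (exact p = 0.17), and with TPM they were 0.74 and 0.53 (exact p = 0.127). An antisense transcript and others share 6.14% of its 50-base stretches.

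**Figure D5:**
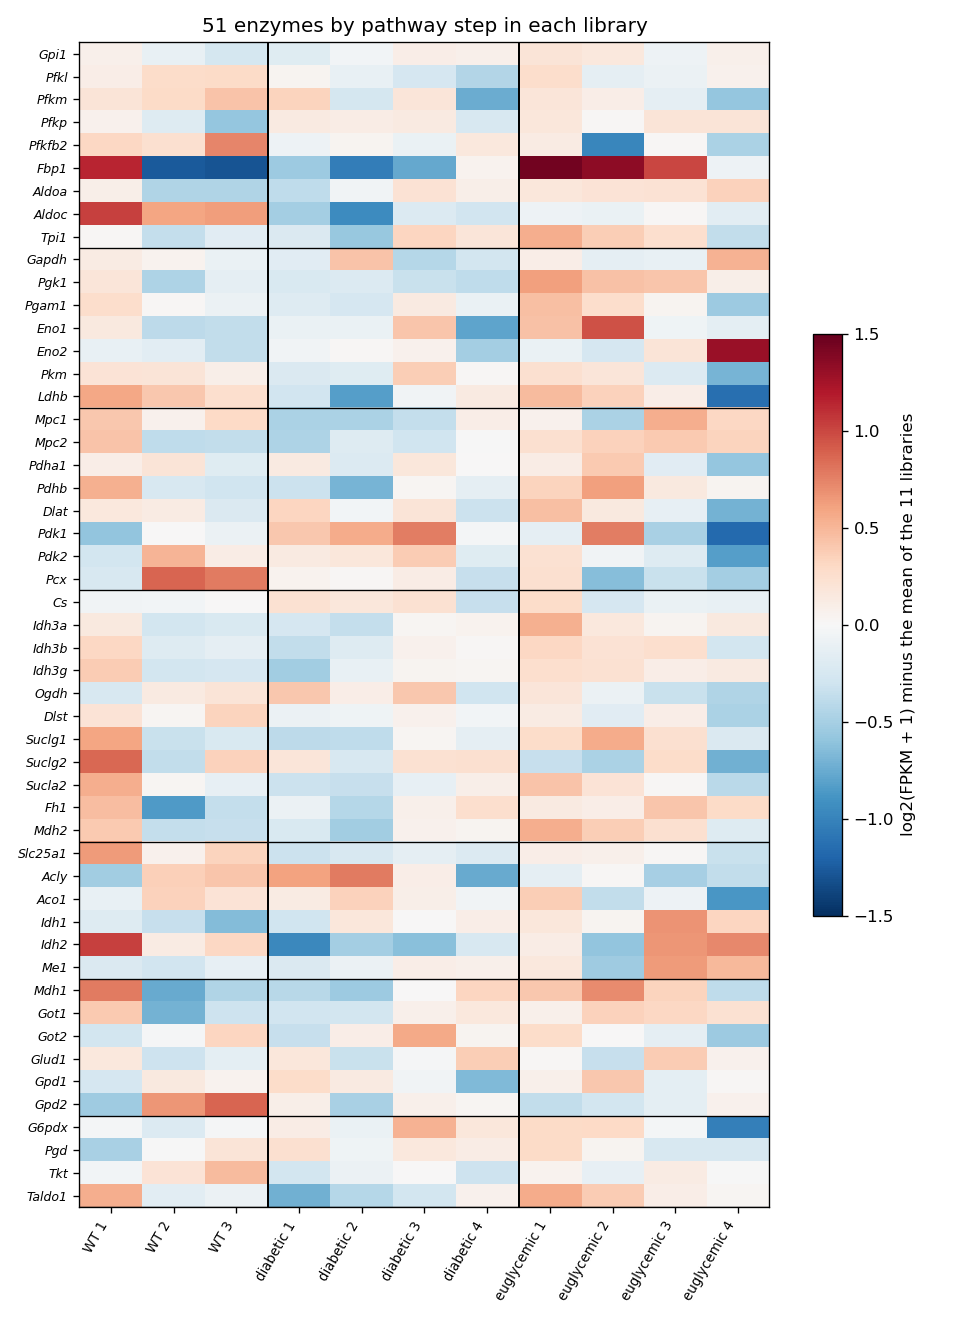
Log2(FPKM + 1) of the 51 enzymes (rows, by pathway step) in the 11 libraries (columns), minus the mean of the 11 libraries, with a colour scale from -1.5 to 1.5. The columns of WT replicate 1 and euglycemic replicate 4 differ from the others of their groups, in 17 and 18 of the 51 enzymes by at least 1.5-fold.

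Other genes of the same pathways were read from a list of 64 genes that were no members, of which 47 were tested. In each comparison with WT 1 of the 47 was called, *Slc2a2*, which encodes GLUT2. It had 69.7, 87.0 and 70.0 FPKM in WT, 16.3, 13.1, 21.4 and 19.4 FPKM in the diabetic and 29.6, 18.9, 24.5 and 14.05 FPKM in the euglycemic libraries, below WT in all 8 (by limma -2.06 ± 0.25 on the log2 scale in the diabetic mutants with an adjusted p of 0.00254, and -1.79 ± 0.25 in the euglycemic mutants with an adjusted p of 0.00712).

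Among those with the highest log2 fold changes in both comparisons with WT was *Ldha*, the muscle-type lactate dehydrogenase subunit, which was not called. *Ldha* had 0.0793, 0.422 and 0.0804 FPKM in WT, 3.24, 1.23, 2.13 and 0.403 FPKM in the diabetic and 2.33, 1.98, 0.957 and 1.56 FPKM in the euglycemic libraries (1.10 ± 0.33, adjusted p = 0.164, and 1.17 ± 0.33, adjusted p = 0.152). *Ldha* stayed at or under 3.24 FPKM in all libraries. The lowest log2 fold changes after *Slc2a2* were those of *Fbp2*, the muscle-type fructose bisphosphatase, in the diabetic mutants (-0.59 ± 0.45, adjusted p = 0.668), with 2.91 FPKM in WT replicate 1 and 0 in the other two, and of *Pdp2*, a pyruvate dehydrogenase phosphatase, in the euglycemic mutants (-0.85 ± 0.33, adjusted p = 0.28).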

How the data were processed

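The authors deposited 1 table of FPKM values per gene for 11 libraries, from poly-A selected paired-end RNA on mm10. The methods of the study name Tophat and Cufflinks, while the submitters' processing notes name HISAT2 2.0.4, StringTie 1.3.0 and edgeR, so which pipeline made the values is not settled. FPKM are not counts, and no count test was used. Strand-specific counting is not given in the sources used here. Depth was inferred from single-exon genes, by the step of 1 fragment that best fitted their low values. Per library 48.4% to 65.7% of these values fell within 0.02 of a whole step, so the depths are estimates.

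Values were tested as log2(FPKM + 1) with limma 3.58.1 in R 4.3.3, in 1 fit of the 11 libraries over the 11251 genes with at least 1 FPKM in at least 3 libraries. Fold changes are on that scale and understate those of low genes. Genes were called at a Benjamini-Hochberg adjusted p of at most 0.05 and 1.5-fold. The comparisons with WT share its 3 libraries. Enzyme ratios and *Me3* were compared by exact permutation tests in Python 3.11.15 with scipy 1.17.1. The genes named are the called members, the 3 highest and 3 lowest log2 fold changes in each of 3 comparisons, the highest member of each step and those without overlap between WT and both mutant groups, and among other pathway genes the called and the 2 highest and lowest. Other genes named with values were chosen after these were seen. The members and lists were chosen with earlier results of these data known.

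The fit was tested on simulated data with 200 changed genes of 11251, in which 190 genes changed 4-fold and 71 changed 2-fold were called between diabetic mutants and WT, in separate simulations, with 17 and 6 unchanged genes called. The changed genes were drawn only from levels above that of *Aldoc*. The noise was normal and independent, with no library standing apart. These counts therefore do not carry over to low enzymes such as *Aldoc*. Alternatives were the filter, pseudocount, TPM, median of ratios, fits without the third group or without a mean-variance trend, library weights, calls without a fold limit, a replicate block and each library left out. Some results of other pathway genes are not reported here.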

Additional observations from a re-analysis of the deposited data

Results flagged for a closer look

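In a group of 4 libraries, a value far from the other 3 was looked for in 36 groups of named genes, of which chance alone puts about 1 in 20 past the limit used. *Pfkp* had 2.76 FPKM in diabetic replicate 4 against 3.80 to 3.91 FPKM in the other diabetic libraries, and 3.51 FPKM in euglycemic replicate 2 against 4.02 to 4.10 FPKM in the other euglycemic libraries. *Suclg2* had 4.23 FPKM in diabetic replicate 2 against 6.00 to 6.30 FPKM in the other diabetic libraries. Each was a library below its group, and the cause was not tested.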

How the results depend on the processing

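In the diabetic mutants against WT, and in both mutant groups against WT, the count of called enzymes went from 1 to 0 without a filter on low values, with a minimum of 5 FPKM (at which *Aldoc* was not among the genes tested), and with 2 alternatives chosen after seeing the data, an acinar marker score as covariate and only libraries with summed acinar markers below 100 FPKM. With library weights the counts were 17 for euglycemic mutants against WT, 5 for diabetic against euglycemic mutants and 7 for both mutant groups against WT, where 20.3%, 10.8% and 9.92% of all genes were called, and the median of the enzymes in the euglycemic mutants moved from -0.01 to 0.17. With a replicate block the counts against WT were 0 for the diabetic mutants and 0 for both groups (*Aldoc* adjusted p = 0.0527 and 0.06 by limma). Deviations of same-numbered libraries had a mean correlation of -0.13 over 10 pairs, from -0.37 to 0.21. For 30 pairs with different numbers it was 0.04, from -0.32 to 0.36. These pairs share libraries, so they cannot decide whether the numbers pair the libraries.

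Leaving out each library in turn gave 0 to 1 called in the diabetic mutants (0 without any WT replicate or diabetic replicate 1), 0 to 4 in the euglycemic mutants and 0 to 2 between the mutant groups (4 and 2 without WT replicate 1), 0 to 1 in both mutant groups (0 without any WT replicate), and 0 to 3 enzyme ratios (0 without any WT replicate, where 45 arrangements remain and the smallest exact p is 0.0222). *Me3* in both mutant groups ranged from 0.29 to 0.43 with 1 library left out (0.43 without euglycemic replicate 4) and was 0.70 with a pseudocount of 0.1, 0.53 with TPM and 0.32 with the median of ratios, all chosen after seeing the data. With only the libraries low in acinar markers, which leaves diabetic replicate 4 as the 1 diabetic library and takes its spread from the other groups, *Pfkp* in the diabetic mutants was -0.0077, and *Pdk1* and *Acly* between the mutant groups -0.17 and -0.51, against 0.27, 0.68 and 0.43. The cause was not tested. Of 432 values of the named enzymes under alternatives, 402 kept direction and side of the threshold. Most of the 19 named results were not called in the main fit and counted as kept by staying uncalled. Only *Aldoc*, in the diabetic mutants and in both groups, had calls to lose, and 15 of its values lost them. Its adjusted p by limma was at most 0.05 in 14 of 22 and in 15 of 22 alternatives.

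Over all genes, the calls in the diabetic mutants went from 109 to 22 without a filter, 551 with weights, 45 with the block, 44 with the covariate and 1 with the acinar-low libraries. In the euglycemic mutants 62 became 13, 2287, 20, 35 and 6, and 17 with only the groups compared. Between mutant groups 1 became 1212 with weights and 6 with only the groups compared. In both mutant groups 118 became 23, 1116, 53, 53 and 36. With TPM the share of higher calls moved from 48.6% to 63.6% in the diabetic mutants and from 50.8% to 61.6% in both groups. With 3 or 4 libraries a group and 1 fragment on 1 kb worth up to 0.105 FPKM, small changes and genes near 1 FPKM are poorly resolved.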
